A study of Mus musculus with 10 samples.

Results

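The genes described here are 10 of the mouse genes that make nicotinamide adenine dinucleotide (NAD) or phosphorylate it or its riboside precursor: the nicotinamide riboside kinases Nmrk1 and Nmrk2, Nampt, Nmnat1, Nmnat2, Nmnat3, Naprt, Qprt, Nadsyn1 and Nadk. They were chosen by name, for riboside kinase, salvage, Preiss-Handler and de novo steps, and they are 10 of the 54532 genes counted. Reads on genes were counted in the cochlea, the hearing organ of the inner ear, of 10 mice at 12 months of age. In 5 NR-treated mice, the drinking water held nicotinamide riboside (NR) at 7 mg/ml (24 mM) for 10 months, starting at 2 months of age. The other 5, labelled Vehicle and called non-treated here, had plain water. All 10 carried the mtKeima transgene, a fluorescent reporter of mitochondria, on a mixed genetic background, and were described in the study's methods as wild type for cadherin23 and Nnt. Each library was 1 mouse, and the tissue was not sorted.

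NAD is built along several routes. Nicotinamide is recycled by Nampt into nicotinamide mononucleotide, and NR reaches the same mononucleotide through the riboside kinases Nmrk1 and Nmrk2, of which Nmrk2 is known as the form of skeletal muscle and heart. The Nmnat enzymes turn mononucleotides into dinucleotides, while nicotinic acid enters through Naprt, quinolinic acid from tryptophan enters through Qprt, both end at Nadsyn1, and Nadk phosphorylates NAD to NADP.

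Totals lay between 17060379 and 24419230 counted reads per mouse, and 18329 genes passed the filter on low counts. Levels are given as CPM, reads scaled to the normalised library size, and differences as log2 fold changes of NR-treated over non-treated mice from edgeR's quasi-likelihood test, with p-values adjusted by Benjamini-Hochberg over all genes tested. The labels call the mice female, but all 10 libraries held between 1235 and 1928 reads of the Y-linked gene Ddx3y and between 2 and 8 of Xist, the RNA of the inactive X chromosome. Among the markers of the cochlea, Coch, an abundant protein of its fibrocytes, stood at a mean of 2612 CPM in NR-treated and 2981 CPM in non-treated mice, and Otos at 708 and 1173 CPM. All 19 genes of the cochlea list were lower in NR-treated mice, 10 of them at an unadjusted p of 0.05 and 0 at an adjusted p of 0.05. Over all genes tested, 4.88% were lower and 4.83% higher at that unadjusted p, shares that also apply to the later list counts. The mean log2 summed level of the cochlea list differed by -0.37 (exact two-sided permutation test, p = 0.127). Its sums overlapped between the groups, and non-treated mice 3 and 4 stood highest, at 8698 and 8107 CPM. The libraries of NR-treated mice 3 and 5 stood apart in skeletal muscle genes, as described beside Nmrk2. Main results that rest on them are given with and without them, but the count of muscle genes and the closest patterns only with them. In bulk tissue, fewer cells of a type and less RNA per cell cannot be told apart.

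Across the routes to NAD, 9 of the 10 genes were measured well enough to be tested with all other genes, and their log2 fold changes lay between -0.38 (Nmnat3) and 0.04 (Nmnat1). At an adjusted p of 0.05, 0 of these 9 passed, as did 0 of the 18329 genes tested (0%). By DESeq2, 105 genes passed, with none of the 10 among them. At an unadjusted p of 0.05 by edgeR, 0 of the 9 passed in either direction, against 9.71% of all genes tested, 4.88% being lower and 4.83% higher in NR-treated mice. By DESeq2, 2 of the 10 passed at an unadjusted p of 0.05, Nmrk2 and Qprt, against 6.58% of the genes it tested. The 5 values of one group lay apart from the 5 of the other for 0 of the 10, against 1.65% of the genes tested. In direction, 8 of the 9 were lower in NR-treated mice, and their median log2 fold change was -0.08 against -0.01 over all genes, of which 52.9% were lower.

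**Figure D1:**
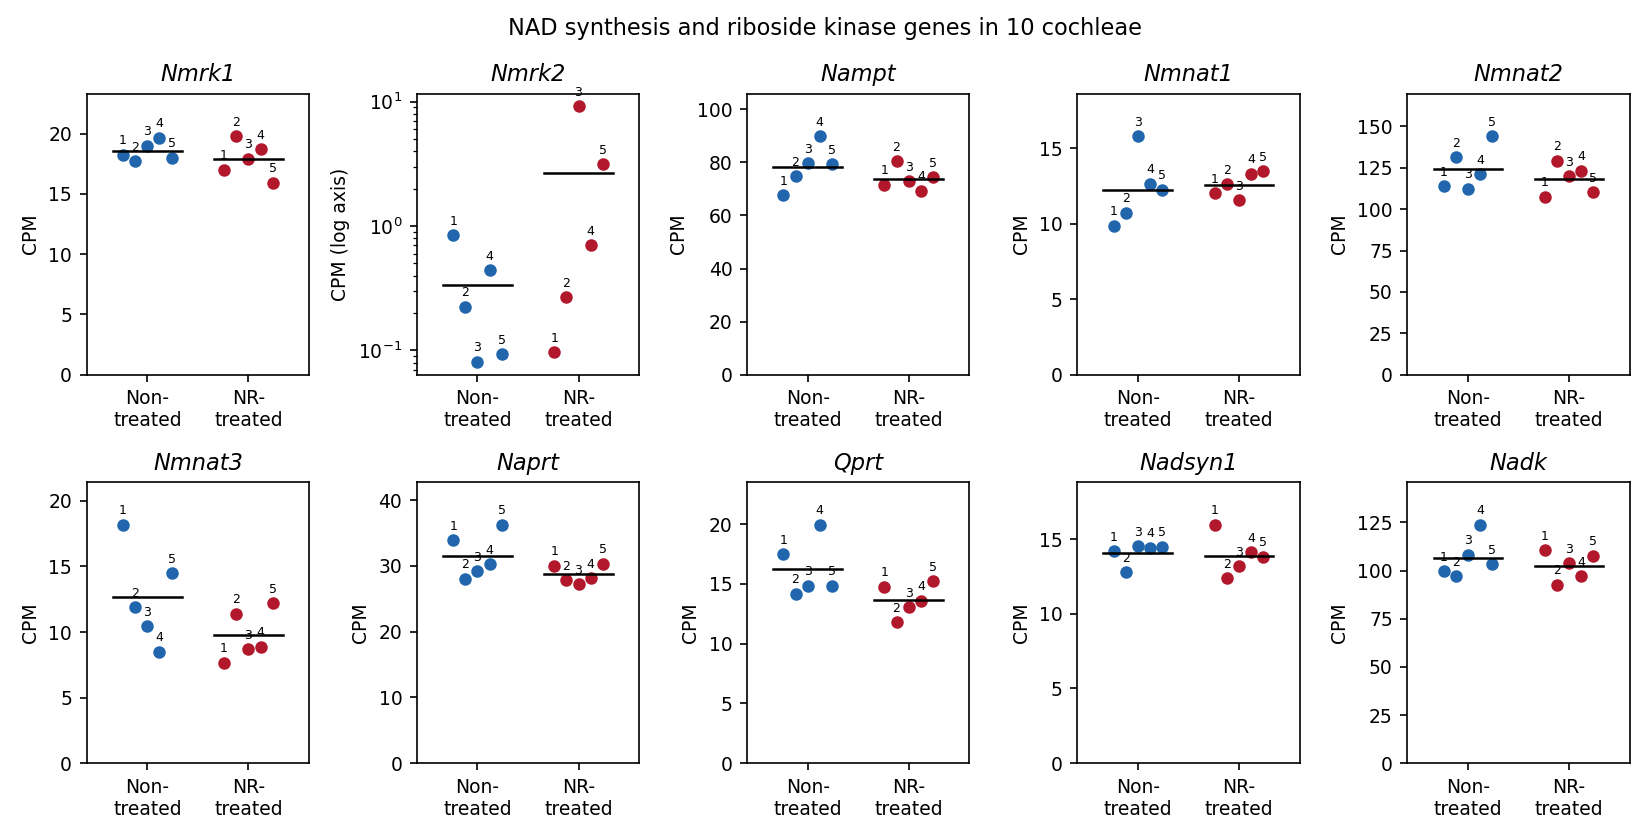
Level of each of the 10 genes in each cochlea, in CPM, with a log axis for Nmrk2 and axes from 0 for the others; numbered points are mice, blue non-treated and red NR-treated, and lines are group means. The groups overlap in every panel, and NR-treated mice 3 and 5 are the highest for Nmrk2, at 9.17 and 3.13 CPM.

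The levels of the 10 genes were compared with each other per kilobase of gene length, as the files give it. Nadk stood highest, at 28.4 ± 2.81 CPM per kilobase in non-treated mice (SD, n = 5), followed by Nmnat2 at 21.5 ± 2.29, Nampt at 15.5 ± 1.598 and Naprt at 13.4 ± 1.46. Qprt, Nmrk1, Nadsyn1 and Nmnat1 formed a lower band between 6.15 and 4.04 CPM per kilobase, Nmnat3 stood at 2.54 ± 0.751, and Nmrk2 was last at 0.182 ± 0.172. Over the 10 mice, the ranges of neighbours in this order lay apart at 2 steps only, between Nmnat2 and Nampt and between Naprt and Qprt. Nadk was above Nmnat2 in 10 of 10 mice although their ranges met, whereas Qprt was above Nmrk1, and Nadsyn1 above Nmnat1, in 6 of 10 mice each.

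**Figure D2:**
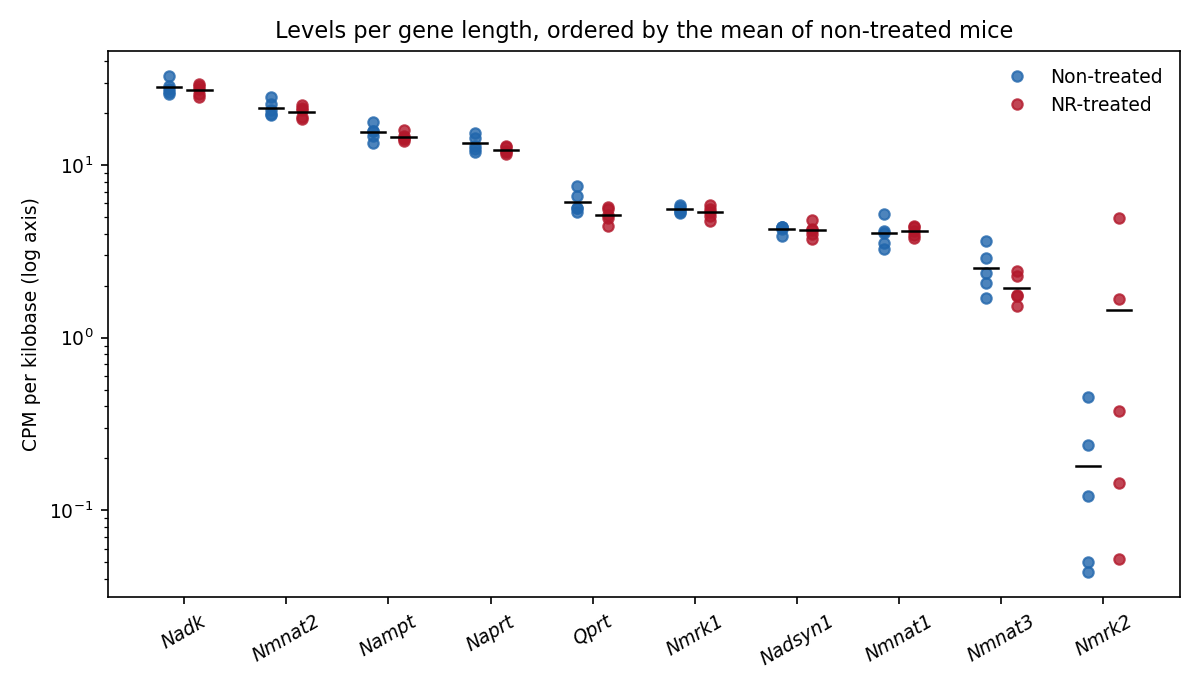
Level of each gene per kilobase of gene length in the 10 cochleae, on a log axis and ordered by the mean of non-treated mice; points are mice, blue non-treated and red NR-treated, and lines are group means. Nadk and Nmnat2 are the highest, and Nmrk2 spans the widest range, from 0.0437 to 4.95 CPM per kilobase.

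Nmrk1 (ENSMUSG00000037847, chromosome 19, 18631950 to 18652194 on mm10) encodes the broadly expressed riboside kinase. Its level in NR-treated mice 1 to 5 was 17.01, 19.8, 17.9, 18.7 and 15.9 CPM, and in non-treated mice 1 to 5 it was 18.3, 17.7, 19.0, 19.7 and 18.0 CPM. The lowest and the highest mouse were both NR-treated, and the non-treated mice all lay between them. Its log2 fold change was -0.05 ± 0.08 (SE, n = 5 per group), with a 95% interval from -0.22 to 0.11 and an adjusted p of 0.827.

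Nmrk2 (ENSMUSG00000004939, chromosome 10, 81198170 to 81202051 on mm10) was close to absent in most cochleae and high in NR-treated mice 3 and 5. NR-treated mice 1 to 5 had 2, 6, 212, 16 and 54 reads, and non-treated mice 1 to 5 had 17, 5, 2, 10 and 2 reads. In CPM these were 0.0964, 0.268, 9.17, 0.699 and 3.13 in NR-treated mice and 0.844, 0.224, 0.0809, 0.441 and 0.0929 in non-treated mice. The groups overlapped: NR-treated mice 1, 2 and 4 lay within the range of non-treated mice.

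Nmrk2 fell below the filter on low counts and was tested in a second fit that kept every one of the 33224 genes with any read. Its log2 fold change there was 3.02 ± 1.00 (SE, n = 5 per group), with an adjusted p of 0.576 by edgeR (0.00958 before adjustment). That fit had 4.26% of its genes up in NR-treated mice at an unadjusted p of 0.05. DESeq2 gave an adjusted p of 0.247. An exact two-sided permutation test of its log2 CPM gave p = 0.198, where the smallest value possible with 5 against 5 mice is 0.00794. Of the 290 reads in NR-treated mice, 24 remained without mice 3 and 5, against 36 in the 5 controls, and the fitted log2 difference was then 0.13, with an adjusted p of 0.978 by edgeR. Without mouse 3 alone it was 1.62, with an adjusted p of 0.734 by edgeR.

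The muscle content of each sample was read from a list of 35 skeletal muscle genes. Their summed level was 202, 267, 1491, 319.8 and 1370.2 CPM in NR-treated mice 1 to 5, and 303, 225, 262, 244 and 240.5 CPM in non-treated mice. NR-treated mice 3 and 5 stood apart, and the other 8 mice lay between 202 and 319.8 CPM. In non-treated mice, Pygm, Mybpc1 and Eno3 were the largest parts of the sum, at means of 54.1, 34.6 and 29.7 CPM. In NR-treated mice they stood at means of 55.6, 38.0 and 39.7 CPM. The sum, and the ratio of Nmrk2 to it, therefore follow fibre genes such as Acta1 only in part. Of the 30 list genes tested, 14 were higher and 0 lower at an unadjusted p of 0.05, 26 had a positive log2 fold change, and 0 passed an adjusted p of 0.05. Over all genes tested, 4.83% were higher at that unadjusted p. The list count includes NR-treated mice 3 and 5 and was not made without them. The difference in mean log2 summed level was 1.01 (exact two-sided permutation test, p = 0.198), and 0.03 with p = 0.893 by the same exact test without NR-treated mice 3 and 5. Without NR-treated mouse 1 it was 1.35, with p = 0.0159 by the exact test.

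Several genes of skeletal muscle fibres were high in both muscle-rich samples, but not all of the list. Ckm, the creatine kinase of muscle, stood at 67.6 and 47.5 CPM in NR-treated mice 3 and 5 and between 0.132 and 4.32 CPM in the other 8. Acta1, skeletal muscle actin, stood at 287 and 124 CPM in these 2 mice, and Myh1, a fast myosin heavy chain, at 231 and 184 CPM. The other 8 mice were not alike in these genes, with Acta1 from 0.511 to 29.6 CPM and Myh1 from 0.314 to 14.1 CPM. Myh2, at 6.42 CPM in NR-treated mouse 4, was above its 4.67 CPM in mouse 3. NR-treated mice 3 and 5 differed in Myh4, another fast myosin, at 8.74 CPM in mouse 3 and 90.2 CPM in mouse 5. Myh7, the slow myosin, did not exceed 0.199 CPM in any of the 10 mice, and Tnnc2, the troponin C of fast fibres, did not exceed 0.179 CPM, with 0.0433 CPM in mouse 3 and 0 in mouse 5.

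Read against muscle content, Nmrk2 did not separate the groups. Per 1000 CPM of muscle genes, Nmrk2 was 0.478, 1.01, 6.15, 2.19 and 2.28 CPM in NR-treated mice 1 to 5 and 2.79, 0.996, 0.309, 1.81 and 0.386 CPM in non-treated mice. Mouse 3 stood highest, and the other 4 NR-treated mice lay within the range of the non-treated mice. The difference in mean log2 ratio was 0.92, with p = 0.302 by an exact two-sided permutation test, and 0.17, with p = 0.821 by the same exact test, without NR-treated mice 3 and 5. Leaving out single mice, it lay between 0.46 (without NR-treated mouse 3) and 1.38 (without NR-treated mouse 1), with 0.54 without non-treated mouse 3. With the log2 muscle level as a covariate, the log2 fold change of Nmrk2 was -0.14, with an adjusted p of 0.985 by edgeR. Because the samples formed 2 clusters of summed muscle level, no correlation over all 10 was computed as a result. Within the 8 lower samples, log2 Nmrk2 and log2 muscle level had a Pearson r of 0.73 (exact permutation p = 0.0431, adjusted over 2 correlations 0.0862) and a Spearman rho of 0.62 (exact permutation p = 0.115), on 2 to 17 Nmrk2 reads per sample. With the mean log2 level of the list in place of its sum, r was 0.90 (exact permutation p = 0.00375, not adjusted). Spearman rho was then 0.81 (exact permutation p = 0.0218, not adjusted).

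**Figure D3:**
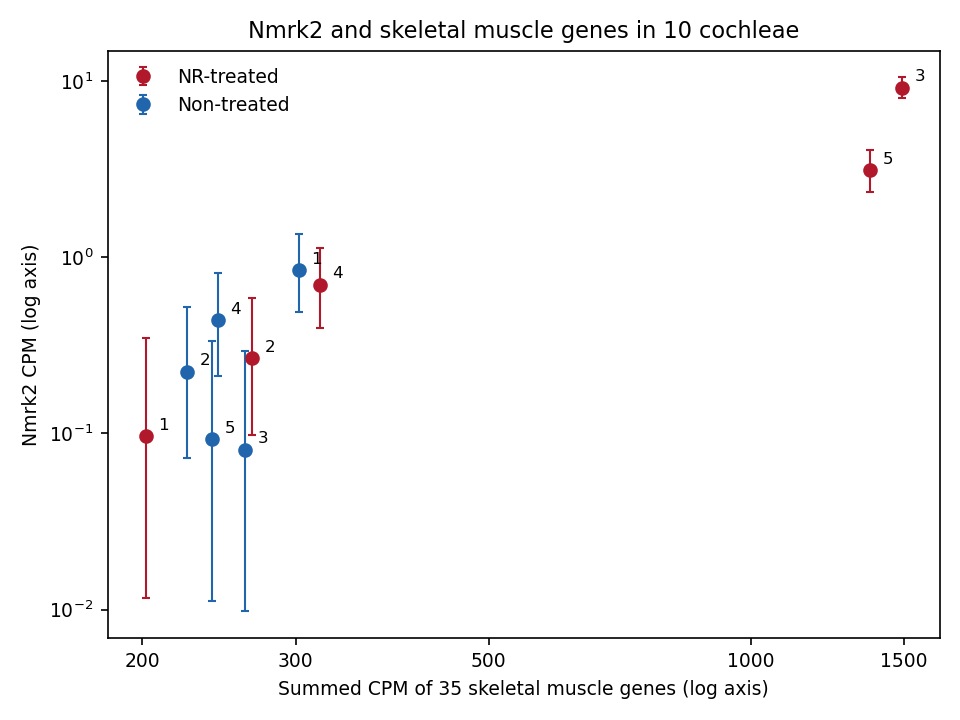
Nmrk2 in CPM against the summed CPM of 35 skeletal muscle genes in the 10 cochleae, both on log axes; points are mice, numbered as in the text, blue non-treated and red NR-treated, and bars are exact 95% Poisson intervals, which cover counting error only. NR-treated mice 3 and 5 sit apart from the other 8 on both axes, at 1491 and 1370.2 CPM of muscle genes.

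The genes whose log2 CPM followed Nmrk2 most closely over the 10 samples were Mb (myoglobin, r = 0.96), Ttn, Des, Tnni2, Tnnt3, Atp2a1, Mylpf, Alpk3, Myh1 and Ckm (r = 0.93), and 8 of these 10 were in the muscle list. Des and Alpk3, the other two, encode a muscle intermediate filament and a muscle kinase. These correlations include NR-treated mice 3 and 5, and are a description over samples that share library preparation. Here and below, the genes closest in pattern were picked as the highest r among all genes tested. Such a maximum was high for every member, at 0.90 (Nmnat1) to 0.97 (Nmnat3) for its closest gene. The cells behind a shared pattern were not tested. The share of Nmrk2 in the summed riboside kinase level per kilobase ranged from 1.01 to 48.0% in NR-treated mice (median 6.32%) and from 0.762 to 7.69% in non-treated mice (median 2.23%). Nmrk1 was the higher of the 2 kinases in all 10 cochleae.

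The 250 bases before the RefSeq start of Nmrk2 are shown because its level moved with muscle genes. They lie at chr10:81202038-81202287 on the minus strand (RefSeq, GRCm38.p6) and are printed 5′ to 3′ with E-box letters, CANNTG, in capitals. The RefSeq start lies within the span the files give for the gene, so the 3′ end of the window overlaps that span.
Nmrk2: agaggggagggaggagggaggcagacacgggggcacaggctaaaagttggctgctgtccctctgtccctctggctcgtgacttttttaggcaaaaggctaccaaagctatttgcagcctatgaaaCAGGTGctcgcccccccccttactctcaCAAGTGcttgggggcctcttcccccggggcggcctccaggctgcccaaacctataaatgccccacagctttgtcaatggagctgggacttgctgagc
CANNTG reads the same way in its fixed letters on both strands, and the window held 2 matches. Of 32851 promoter windows of this length, 66.2% held at least 1, a share in which Nmrk2 is not unusual. The MEF2 and CArG motifs, searched on both strands, had 0 matches here and were in 0.508% and 1.47% of windows.

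Nampt (ENSMUSG00000020572, chromosome 12, 32819545 to 32853349), the enzyme of nicotinamide salvage, was measured at 71.6, 80.4, 72.9, 69.4 and 74.4 CPM in NR-treated mice and at 67.6, 74.9, 79.6, 89.8 and 79.2 CPM in non-treated mice. Both the lowest and the highest mouse were non-treated. Its log2 fold change was -0.09 ± 0.07 (SE, n = 5 per group), with a 95% interval from -0.25 to 0.07 and an adjusted p of 0.711 by edgeR. The 3 genes closest to it in pattern over the 10 samples were Rarb (r = 0.96), Rilpl1 and Rab4a.

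Of the 3 Nmnat genes, Nmnat2, known as the form of neurons and axons, was the most abundant per kilobase, at 72.7 to 79.4% of the summed Nmnat level over the 10 mice. Nmnat1, the nuclear form, made up 12.2 to 19.5%, and Nmnat3, the form described in mitochondria and in red blood cells, 6.34 to 13.7%. Nmnat2 was the highest of the 3 in each mouse, and Nmnat1 was above Nmnat3 in every mouse but non-treated mouse 1, at 12.2% against 13.7%.

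Nmnat1 (ENSMUSG00000028992, chromosome 4, 149467572 to 149485202) was the only one of the 9 tested genes with a log2 fold change above 0. It stood at 12.0, 12.6, 11.6, 13.3 and 13.5 CPM in NR-treated mice and at 9.88, 10.7, 15.8, 12.7 and 12.3 CPM in non-treated mice. The NR-treated mice lay inside the range of the non-treated mice. Its log2 fold change was 0.04 ± 0.13 (SE, n = 5 per group), with a 95% interval from -0.24 to 0.31, and it was -0.03 without non-treated mouse 1.

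Nmnat2 (ENSMUSG00000042751, chromosome 1, 152954993 to 153119261) was measured at 108, 129, 120.0, 123 and 110.1 CPM in NR-treated mice and at 114, 131, 112, 121 and 144 CPM in non-treated mice. The groups overlapped, and the log2 fold change was -0.08 ± 0.08 (SE, n = 5 per group; 95% interval -0.25 to 0.10; adjusted p of 0.761 by edgeR). A list of 24 neuronal genes summed to 8071 to 8898 CPM in NR-treated and 5881 to 8786 CPM in non-treated mice, with 8 of its genes higher and 1 lower at an unadjusted p of 0.05. Their part in the level of Nmnat2 was not tested beyond a fit with the list as a covariate and a correlation over the 10 samples. With the covariate, the log2 fold change of Nmnat2 was -0.19 (edgeR's adjusted p 0.579, and 0.0264 before adjustment). In the correlation, log2 Nmnat2 and the log2 summed list had a Pearson r of 0.41 (permutation p = 0.240, the adjusted value over 2 correlations being the same). Spearman rho was 0.58 (permutation p = 0.0879, adjusted 0.115). Without the 2 samples farthest from the median of the list, r was 0.53 (exact permutation p = 0.171). The sign turned with the mean log2 level of the list in place of its sum, at r = -0.34 (permutation p = 0.332). The genes closest to Nmnat2 in pattern were Cerk (r = 0.96) and a pair of genes of neuronal excitability and release, Kcnc1 (r = 0.94), a potassium channel, and Syt2 (r = 0.94), a synaptotagmin. They were picked as the highest r among all genes tested, and a shared cell source was not tested.

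Nmnat3 (ENSMUSG00000032456, chromosome 9, 98287435 to 98420438) was the most variable of the 9 tested genes, with a coefficient of variation of 28.6% over the 10 samples. It stood at 7.66, 11.4, 8.70, 8.87 and 12.2 CPM in NR-treated mice and at 18.2, 11.9, 10.4, 8.51 and 14.5 CPM in non-treated mice. The 2 highest mice were non-treated, and non-treated mouse 4 lay among the lower NR-treated mice. The fit gave a log2 fold change of -0.38 ± 0.21 (SE, n = 5 per group; 95% interval -0.83 to 0.08; edgeR's adjusted p 0.577, and 0.0945 before adjustment). It was -0.21 without non-treated mouse 1, with an adjusted p of 0.698 by edgeR.

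Nmnat3 was read beside 11 genes of red blood cells and their precursors. These summed to 7757, 11765, 8338, 9508 and 13549.6 CPM in NR-treated mice and to 18692, 12536, 7983, 4442 and 11852 CPM in non-treated mice. Non-treated mouse 1 was the highest for both, while the lowest of the list was non-treated mouse 4 and the lowest for Nmnat3 was NR-treated mouse 1. Slc4a1, the anion exchanger of red cells, stood at 364, 441, 362, 423 and 659 CPM in NR-treated mice and at 1158, 501, 540, 307 and 763 CPM in non-treated mice. Of the 11 genes, 0 passed an unadjusted p of 0.05 and 11 of 11 were lower in NR-treated mice, while the mean log2 summed level differed by -0.0013 with p = 1 by an exact permutation test. The genes closest to Nmnat3 in pattern over the 10 samples were Fech (r = 0.97), the last enzyme of haem synthesis, Tipin and Cdyl. They too were picked as the highest r among all genes tested, and a link to red cells was not tested. With the log2 erythroid level as a covariate, an alternative chosen after seeing the data, Nmnat3 had a log2 fold change of -0.35, with an adjusted p of 0.299 by edgeR (0.00549 before adjustment). The share of all genes that passed an unadjusted p of 0.05 in that fit was not counted, so this is given as a value only.

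**Figure D4:**
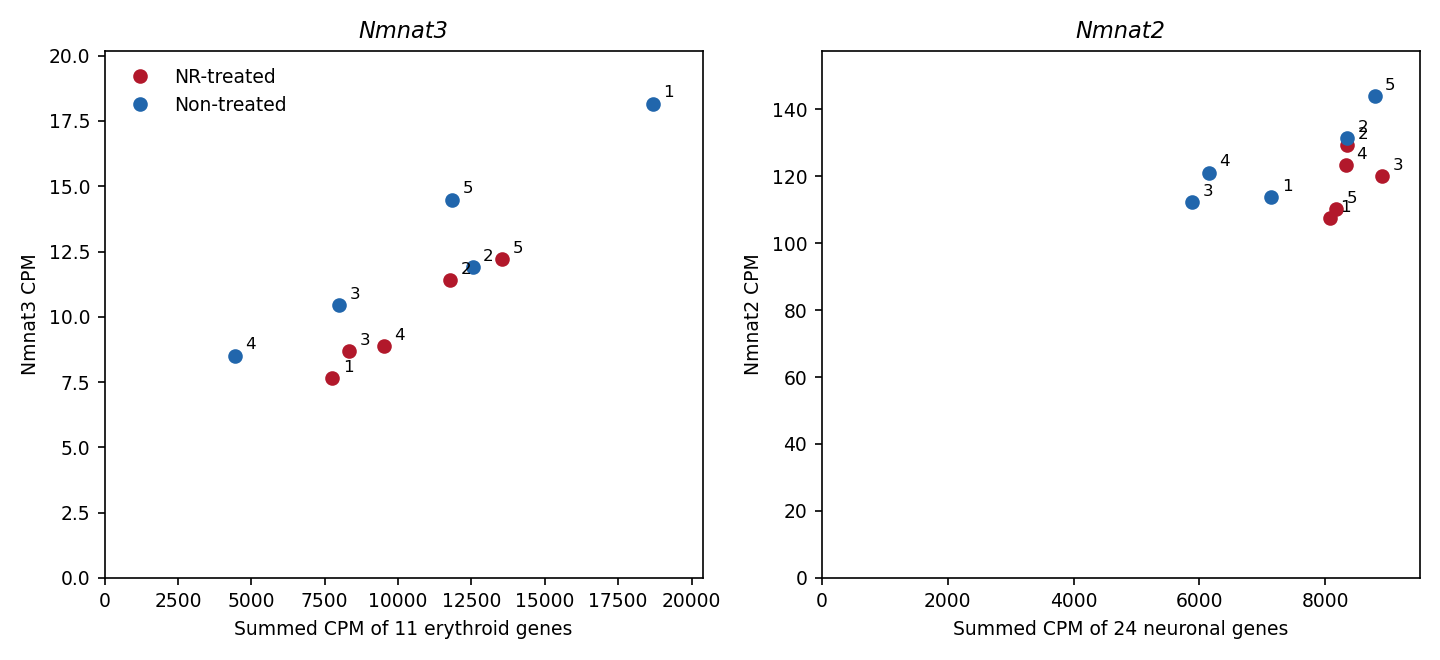
Left, Nmnat3 against the summed level of 11 erythroid genes; right, Nmnat2 against the summed level of 24 neuronal genes, all in CPM on linear axes from 0. Points are mice, numbered as in the text, blue non-treated and red NR-treated; non-treated mouse 1 is highest on both axes at left, at 18.2 CPM of Nmnat3, and at right the points do not follow one line (r = 0.41 on the log2 scale).

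Naprt (ENSMUSG00000022574, chromosome 15, 75890956 to 75894481), the entry of nicotinic acid, stood at 30.02, 27.8, 27.2, 28.1 and 30.3 CPM in NR-treated mice and at 33.9, 28.0, 29.2, 30.2 and 36.2 CPM in non-treated mice. The 2 highest mice were non-treated, and the rest overlapped. Its log2 fold change was -0.13 ± 0.08 (SE, n = 5 per group), with a 95% interval from -0.31 to 0.04 and an adjusted p of 0.605 by edgeR. Its exons share 277 bases (11.8% of its length) with Eef1d on the same strand, and reads there cannot be assigned to one of them. The genes closest to Naprt in pattern were Kmt5c (r = 0.96), Pask and Pml.

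Qprt (ENSMUSG00000030674, chromosome 7, 127107114 to 127122226), the entry of the de novo route from tryptophan, came nearest to the unadjusted threshold among the tested genes. It stood at 14.7, 11.8, 13.0, 13.6 and 15.2 CPM in NR-treated mice and at 17.5, 14.2, 14.9, 19.9 and 14.9 CPM in non-treated mice. The 2 highest mice were non-treated and the 3 lowest were NR-treated, with overlap between 14.2 and 15.2 CPM. By edgeR, the log2 fold change was -0.25 ± 0.11 (SE, n = 5 per group; adjusted p 0.517, and 0.0514 before adjustment). By DESeq2, p was 0.0422 unadjusted and 0.459 adjusted, and an exact two-sided permutation test of log2 CPM gave p = 0.0635. Leaving out single mice, the log2 fold change of Qprt lay between -0.28 and -0.16, the smallest being without non-treated mouse 4 (edgeR's adjusted p 0.693, and 0.138 before adjustment). The genes closest to Qprt in pattern were Hip1 (r = 0.92), Fgf2 and Phf8.

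Nadsyn1 (ENSMUSG00000031090, chromosome 7, 143795584 to 143822849), the glutamine-dependent synthetase that ends both the de novo and the nicotinic acid route, was among the least variable. It stood at 16.0, 12.4, 13.2, 14.1 and 13.8 CPM in NR-treated mice and at 14.2, 12.8, 14.5, 14.4 and 14.5 CPM in non-treated mice. The lowest and the highest mouse were both NR-treated. The log2 fold change was -0.02 ± 0.09 (SE, n = 5 per group), with a 95% interval from -0.21 to 0.17 and an adjusted p of 0.954 by edgeR.

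Nadk (ENSMUSG00000029063, chromosome 4, 155562378 to 155591001), the cytosolic NAD kinase, stood at 110.5, 92.7, 104, 97.0 and 108 CPM in NR-treated mice and at 99.8, 97.2, 108, 124 and 103 CPM in non-treated mice. The highest mouse was non-treated and the lowest NR-treated. The log2 fold change was -0.06 ± 0.07 (SE, n = 5 per group), with a 95% interval from -0.22 to 0.11 and an adjusted p of 0.810 by edgeR. The genes closest to Nmrk1, Nmnat1, Nadsyn1 and Nadk in pattern were Slc18b1 (r = 0.95), Ptov1 (r = 0.90), Hdac7 (r = 0.93) and Gm44423 (r = 0.95).

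The wider list of NAD metabolism and transport held 24 genes, of which 19 were tested. At an unadjusted p of 0.05, 0 of the 19 were higher and 2 lower in NR-treated mice, close to the share over all genes tested (9.71%), and 0 passed an adjusted p of 0.05. The pair is given as values. In direction, 15 of the 19 were lower, with a median log2 fold change of -0.05. Slc7a5, the light chain of a transporter that carries tryptophan, had a log2 fold change of -0.27 ± 0.11 (SE, n = 5 per group; edgeR's adjusted p 0.476, and 0.0286 before adjustment), from levels of 107, 124, 108, 109.7 and 138 CPM in NR-treated mice and 162, 147, 124, 116 and 158 CPM in non-treated mice. Nt5c1a, a cytosolic 5'-nucleotidase, had one of -1.67 ± 0.64 (SE, n = 5 per group; edgeR's adjusted p 0.476, and 0.0240 before adjustment) at a mean of 0.387 CPM in NR-treated and 1.25 CPM in non-treated mice, where non-treated mouse 4 stood at 3.17 CPM. Slc3a2, the heavy chain partner of Slc7a5 and the most abundant gene of the list, stood at 257 ± 12.8 CPM in NR-treated and 266 ± 11.3 CPM in non-treated mice (SD, n = 5).

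**Figure D5:**
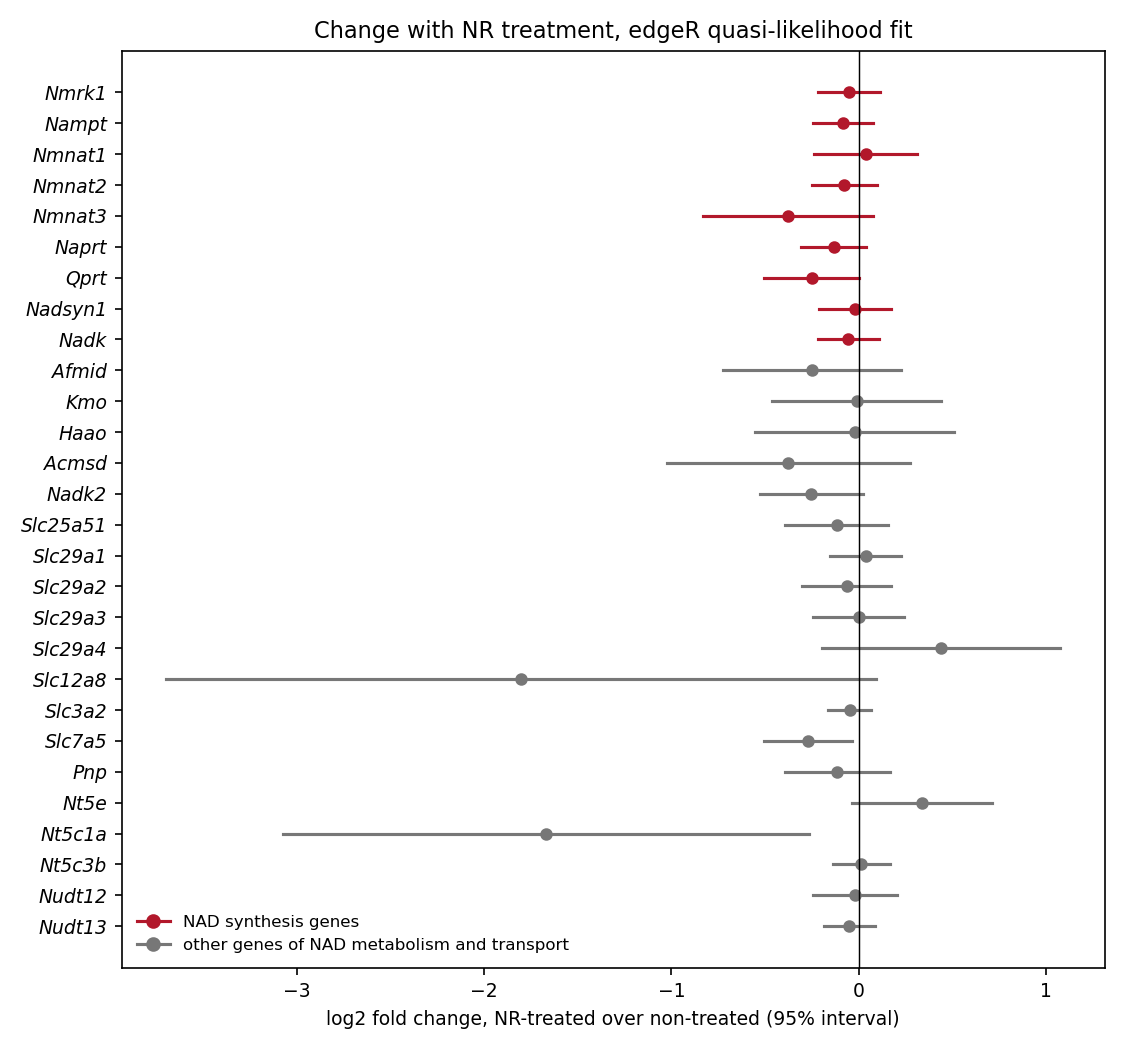
Log2 fold change of NR-treated over non-treated mice with its 95% interval, from edgeR, for the 9 tested NAD synthesis genes (red) and the 19 tested genes of the wider list (grey); Nmrk2 is not drawn, as it was below the filter. The intervals of all 9 red genes include 0, and among the grey ones those of Slc7a5 and Nt5c1a lie below 0.

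Other tissue content also differed between the groups or mice. The adipocyte list, at 258 to 527 CPM summed in NR-treated and 222 to 251 CPM in non-treated mice, lay apart between the groups (p = 0.00794 by an exact permutation test, the smallest possible), with 8 of 14 tested genes higher at an unadjusted p of 0.05. The list held Plin1, Cidec and Pck1, which the study had already named among its most changed genes in these same libraries. The p-value and the count are therefore not independent evidence. The part of adipocyte, cochlear and neuronal content in the levels of the 10 genes was not tested, except for the correlation of Nmnat2 above and the neuron list as a covariate. With it, 2 of the 10 genes passed an unadjusted p of 0.05 and 0 an adjusted one. The share of all genes that passed in that fit was not counted, so the 2 are given as values only. The log2 fold change of Nmnat2 was then -0.19 (edgeR's adjusted p 0.579, and 0.0264 before adjustment) and that of Nmnat3 -0.54 (edgeR's adjusted p 0.583, and 0.0436 before adjustment), while that of Qprt was -0.14 (edgeR's adjusted p 0.791, and 0.300 before adjustment).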

How the data were processed

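Cochlear RNA of 10 mice was sequenced with paired-end poly(A) libraries. The authors deposited whole-number read counts for each gene, not normalized, from STAR version 2.6.1d alignments to mm10 and featureCounts version 1.5.0 in default mode, which takes no strand. Gene lengths come per the file headers. Here, edgeR version 4.0.16 (TMM, filterByExpr, quasi-likelihood, no covariate) tested NR-treated against non-treated mice in R version 4.3.3, and DESeq2 version 1.42.0 was an alternative. log2 CPM used a prior count of 2. Permutation tests were two-sided over 252 labelings, or 100000 resamples for correlations of 10. The members, picked by gene name, and the lists were chosen with earlier results of these data known. All 10 members are named, genes of the wider list at an unadjusted p of 0.05 or of highest level, and for pattern the 10 (Nmrk2) or up to 3 (others) genes of highest r. The planned correlation of Nmrk2 over all 10 samples was replaced by one within 8, because of 2 clusters. Pairs of samples differed by more than sampling noise (ratio 10.8 to 119). The edgeR procedure was tested on simulated data. The study's methods describe male mice, the labels female. P-values cover spread between mice.

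Per the gene models (GENCODE), 270 bases (14.6%) of Nmrk2 exons overlap the antisense gene Atcayos, and reads there cannot be told apart without strand. Member pairs shared 31-base stretches in 4 of 45 pairs, at most 8 stretches, between Nmrk2 and Qprt. Marker lists for Schwann cells (0 higher, 2 lower of 14 tested at an unadjusted p of 0.05), central glia (0 and 0 of 9), neutrophils (3 and 0 of 18), macrophages (0 and 0 of 12) and bone (3 and 0 of 13) were also read.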

Additional observations from a re-analysis of the deposited data

Results flagged for a closer look

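In 5 mice of a group, a value stood apart from its group by Dixon's criterion (gap over range above 0.71) in 2 of 28 groups examined, where chance gives about 1 in 20. Nadsyn1 in non-treated mouse 2, at 12.8 CPM, lay below the other non-treated mice (14.2 to 14.5 CPM), though within the range of NR-treated mice. The cochlea list in NR-treated mouse 2 summed to 6509 CPM, above the other NR-treated mice (4325 to 4864 CPM) and within the range of non-treated mice (4769 to 8698 CPM).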

How the results depend on the processing

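Of 313 alternative values of 18 results, 273 kept their direction and side of the threshold or stayed within the allowed range, and 12 changed sign. At an adjusted p of 0.05, DESeq2 called 105 genes where edgeR called 0, and leaving out single mice gave 0 to 1. The count at an unadjusted p of 0.05 was 1780, and 843 without NR-treated mice 3 and 5 (chosen after seeing the data), with 1153 (without NR-treated mouse 3) to 2440 (without NR-treated mouse 2) leaving out single mice. Non-overlapping genes were 302, 678 without NR-treated mice 3 and 5, and 372 to 861 leaving out single mice. Fewer mice make non-overlap easier to reach, so the counts with mice left out cannot be compared with 302. Counting Nmrk2 from the fit of all genes, 1 of the 10 NAD genes passed an unadjusted p of 0.05, 2 with DESeq2, 0 without NR-treated mice 3 and 5, and 0 to 2 leaving out single mice. The muscle level difference was 0.63 to 1.35 and the correlation of Nmrk2 with muscle 0.63 to 0.85 leaving out single mice, where 6 of 8 lost the threshold. With the mean log2 level of the muscle list, the correlation of Nmrk2 was 0.90. That of Nmnat2 with neurons turned to -0.34 with the mean log2 level. Signs turned for Nmrk2 (-0.14, muscle covariate), Nadsyn1 (0.013 with the muscle and 0.024 with the neuron covariate, 0.019 without NR-treated mice 3 and 5, -0.066 to 0.027 leaving out single mice), Nadk (0.028, neuron covariate, and -0.077 to 0.0062), Nmrk1 (0.0085 without NR-treated mice 3 and 5) and Nmnat1 (-0.026 to 0.16). The causes were not tested. Same-numbered mice did not deviate together (correlations -0.22 to 0.17), with 2 of 5 over 0.1, so the numbers were not taken as pairs. With the replicate block, 0 of the 10 genes passed an unadjusted p of 0.05, 0 genes were called and Nmrk2 stood at 2.00. Nmrk2 rests on few reads, which limits its precision.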
